A study of Mus musculus with 8 samples.

Results

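The genes described here encode nuclear subunits of mitochondrial respiratory complexes I to IV. Members were chosen by a rule on symbols: those starting with Ndufa, Ndufb, Ndufc, Ndufs, Ndufv, Uqcr, Cox4i, Cox5, Cox6, Cox7a, Cox7b, Cox7c or Cox8, together with Sdha to Sdhd, leaving out the assembly factors of the Ndufaf series and symbols ending in -ps. The rule does not use the values, but it was set with earlier results of these data known. The rule found 68 genes of the 19505 symbols on the array, with 38 in complex I, 4 in complex II, 8 in complex III and 18 in complex IV. Each was measured by 1 transcript cluster, the probe group that the array assigns to a gene.

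The samples were primary tail-tip fibroblasts (TTFs) of postnatal mice, given GHMT, a retroviral mix of Gata4, Hand2, Mef2c and Tbx5, transcription factors that can convert fibroblasts towards a cardiomyocyte state. The labels do not give the share of cells transduced or converted. In TTF set 1 the arrays measured GHMT cells without an inhibitor (the protocol names DMSO as an addition, not for which culture), and GHMT cells with diclofenac, with an antagonist of the prostaglandin E2 receptor EP4, and with diclofenac plus prostaglandin E2 (PGE2). In TTF set 2 they measured GHMT cells without an inhibitor, with the EP4 antagonist, with a TGFb inhibitor and with a Wnt inhibitor. Diclofenac blocks the cyclooxygenases that make prostaglandins. Of the 8 arrays, GHMT and the EP4 antagonist had 2 each (1 per set) and every other treatment had 1. Every culture carried GHMT, so no array shows fibroblasts without the factors. The sources used here do not name the antagonist and inhibitors, nor give doses, time of harvest, strain or exact age. The study asked whether blocking the cyclooxygenase-2, PGE2 and EP4 route improves cardiac reprogramming.

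Complex I passes electrons from NADH to ubiquinone, complex II from succinate to ubiquinone, complex III from ubiquinol to cytochrome c, and complex IV from cytochrome c to oxygen. Complexes I, III and IV pump protons, and ATP synthase uses the gradient. Adult heart muscle is rich in mitochondria and uses muscle isoforms of some complex IV subunits in place of those found in most tissues. A few core subunits are encoded in mitochondrial DNA; those were not analysed here.

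Values are log2 expression values, so 1 unit is a 2-fold difference, and each array's background level is the 95th percentile over 23 probe sets for background (5.73 to 5.99). Levels of different genes are not compared, since each probe group has its own brightness. Between 43.7% and 45.7% of the 22206 transcript clusters lay above background on an array, and the number of arrays limits the precision. Hand2, Mef2c and Tbx5 were above background in all 8 arrays (11.01 to 19.27), whereas Gata4 read 3.91 to 4.44, at background throughout; it is not known whether the probes match the virus-borne copy. All 10 fibroblast markers measured, of 11 listed, were above background in every array, and their summed level was 19.98 to 20.31 in set 1 and 19.39 to 19.77 in set 2. The brightest markers weigh most in that sum. In set 1, 7 of 10 were at least 1.5-fold lower than GHMT with diclofenac (5.41% of all clusters) and 7 with the EP4 antagonist (5.36%), and 0 were higher. With the EP4 antagonist in set 2, only 2 were lower (6.63% of all clusters) and 1 was higher (6.18%). With the TGFb inhibitor 5 were lower and 3 higher (8.26% of all clusters each way). At background in all arrays were 7 of 8 macrophage or leukocyte markers, 6 of 6 endothelial, 6 of 6 keratinocyte, 7 of 9 skeletal muscle and 4 of 5 adipocyte markers. In RNA from whole cultures, fewer cells that express a gene and less RNA per cell cannot be told apart.

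Most subunits were expressed in every culture. Of the 68 members, 56 were above background in all 8 arrays, 7 in some and 5 in none. All 4 complex II genes were above background throughout. In complex I the exceptions were Ndufb8 (7 arrays), Ndufv3 (7), Ndufb10 (3) and Ndufa7 (none), and in complex III Uqcr11 (4). The other exceptions were isoforms of complex IV: Cox6b2 was above background in 7 arrays, Cox7a1 in 4 and Cox6a2 in 3, while Cox4i2, Cox7b2, Cox8b and Cox8c were at background in all 8. Cox6a2, Cox7a1 and Cox8b are the heart and skeletal muscle isoforms; Cox6b2, Cox7b2 and Cox8c are known from testis, and Cox4i2 from lung and low oxygen.

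Levels differed between the TTF sets. Between the GHMT arrays, 55 members were higher and 13 lower in set 2, with a median difference of 0.46, where all transcript clusters had a median of -0.16 and the 8813 clusters above background in all 8 arrays had one of 0.27. The sources do not state if both sets went through 1 normalization. Treatments were therefore compared within a set, or with the set as blocking factor. Within a set, the highest and lowest array of a member differed by a median of 0.44 in set 1 (0.08 for Ndufb7 to 2.19 for Cox6b2) and 0.45 in set 2 (0.11 for Ndufb11 to 2.23 for Ndufa4l2). Over the clusters above background in all 8 arrays, the same medians were 0.46 and 0.56. The range reached 2-fold for 8 of 68 members in set 1 and 5 in set 2. The share of all clusters with such a range was not counted. Among the 8 was Ndufb10, which was at background in every array of set 1. By the larger of its ranges, the 10 most variable members were Ndufa4l2, Cox6b2, Cox6a1, Ndufb2, Uqcr11, Cox7a2, Ndufb3, Ndufb10, Uqcr10 and Ndufa1.

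Cox6b2 was the 1 member to pass the test for PGE2-EP4 signalling, in the fit with the TTF set as blocking factor. It encodes an isoform of subunit 6b, which sits on the intermembrane side of complex IV, and its sister gene Cox6b1 serves most tissues. In set 1 its log2 value was 6.58 with GHMT, 8.00 with diclofenac, 7.87 with the EP4 antagonist and 5.81 with diclofenac plus PGE2. In set 2 it was 5.97 with GHMT, 7.05 with the EP4 antagonist, 5.43 with the TGFb inhibitor and 6.32 with the Wnt inhibitor. The 3 arrays with signalling inhibited were thus above the 3 with it active, and the TGFb inhibitor array, at background, was the lowest. The value with diclofenac plus PGE2 stood just above that array's background level of 5.80, and GHMT in set 2 just above 5.90.

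In single-array terms Cox6b2 was 2.68-fold higher than GHMT with diclofenac, and 2.45-fold (set 1) and 2.11-fold (set 2) higher with the EP4 antagonist. Adding PGE2 to diclofenac went with a 4.56-fold lower value than diclofenac alone. Inhibited minus active, the mean difference was 1.52 (SE 0.23, 3 against 3 arrays; means 7.64 and 6.12). Each arm pools different treatments, so its arrays are not replicates of 1 group. With that blocking factor, limma gave it an adjusted p of 0.0295 over all 22206 transcript clusters; without the block the adjusted p was 0.900. Over the other settings tried the adjusted p ran from 0.0122 to 1. With the block it was 0.0134 when the GHMT array of set 1 was left out and 0.0624 to 0.212 when any other single array was, so the call was lost without any of those 5 arrays.

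Cox6b1, the sister gene, did not show that pattern. Its log2 values were 11.92 with GHMT, 12.35 with diclofenac, 12.20 with the EP4 antagonist and 12.32 with diclofenac plus PGE2 in set 1, and 13.42, 13.47 with the EP4 antagonist, 13.53 with the TGFb inhibitor and 12.80 with the Wnt inhibitor in set 2. The inhibited minus active difference was 0.12 (95% interval -0.25 to 0.49, limma with the block; adjusted p = 0.906), and the arms overlapped. To show what the pair and Cox6a1, the member with the next largest difference with diclofenac, have before their start sites, the 250 bases upstream of the RefSeq start on GRCm38.p6 are printed 5′ to 3′ on the gene strand. Capitals mark matches to the nuclear respiratory factor 1 motif (GCGCANGCG) or the ETS core bound by GABPA (CCGGAAG), on either strand.
Cox6b2, chr7:4753095-4753344, minus strand: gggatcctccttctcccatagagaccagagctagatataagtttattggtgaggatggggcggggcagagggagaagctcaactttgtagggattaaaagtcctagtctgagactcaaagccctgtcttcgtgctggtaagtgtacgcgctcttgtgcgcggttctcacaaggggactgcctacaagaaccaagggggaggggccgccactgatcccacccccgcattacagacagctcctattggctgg
Cox6b1, chr7:30626115-30626364, minus strand: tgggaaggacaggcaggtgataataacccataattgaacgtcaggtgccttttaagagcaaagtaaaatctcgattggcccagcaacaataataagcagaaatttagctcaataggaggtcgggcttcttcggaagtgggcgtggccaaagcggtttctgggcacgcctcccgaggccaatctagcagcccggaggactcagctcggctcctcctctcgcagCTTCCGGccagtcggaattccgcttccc
Cox6a1, chr5:115348959-115349208, minus strand: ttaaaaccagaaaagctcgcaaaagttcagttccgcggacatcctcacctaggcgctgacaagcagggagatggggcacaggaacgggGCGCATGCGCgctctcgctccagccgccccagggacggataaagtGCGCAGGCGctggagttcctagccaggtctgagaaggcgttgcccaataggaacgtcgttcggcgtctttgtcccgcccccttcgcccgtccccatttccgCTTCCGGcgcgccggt

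The Cox6b2 window held no match to either motif, Cox6b1 held 1 ETS core 28 to 22 bases before its start, and Cox6a1 held 3 nuclear respiratory factor 1 matches, 2 of them overlapping, and 1 ETS core. Nuclear respiratory factor 1 and GABPA are known activators of respiratory chain genes. RefSeq windows matched 55 of the 68 members. The nuclear respiratory factor 1 letters occurred in 9 of the 55 (16.4%) and in 5.86% of 27025 genes, and the ETS core in 8 (14.5%) and 7.83%. The cAMP response element (TGACGTCA, searched after values were seen) occurred in 4 (7.27%), namely Ndufa10, Ndufa11, Ndufb2 and Uqcrfs1, against 1.77% of all genes. The E-box CAGCTG occurred in 5 (9.09%, against 14.7%). Neither the estrogen-related receptor letters TCAAGGTCA (0.422% of genes) nor the MEF2 letters TATTTTTA (2.84%) were in any of the 55. Median GC content was 56% in members and 52% in all genes. Both strands were searched and the windows differ in base composition, so these shares describe letters and not binding.

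**Figure D1:**
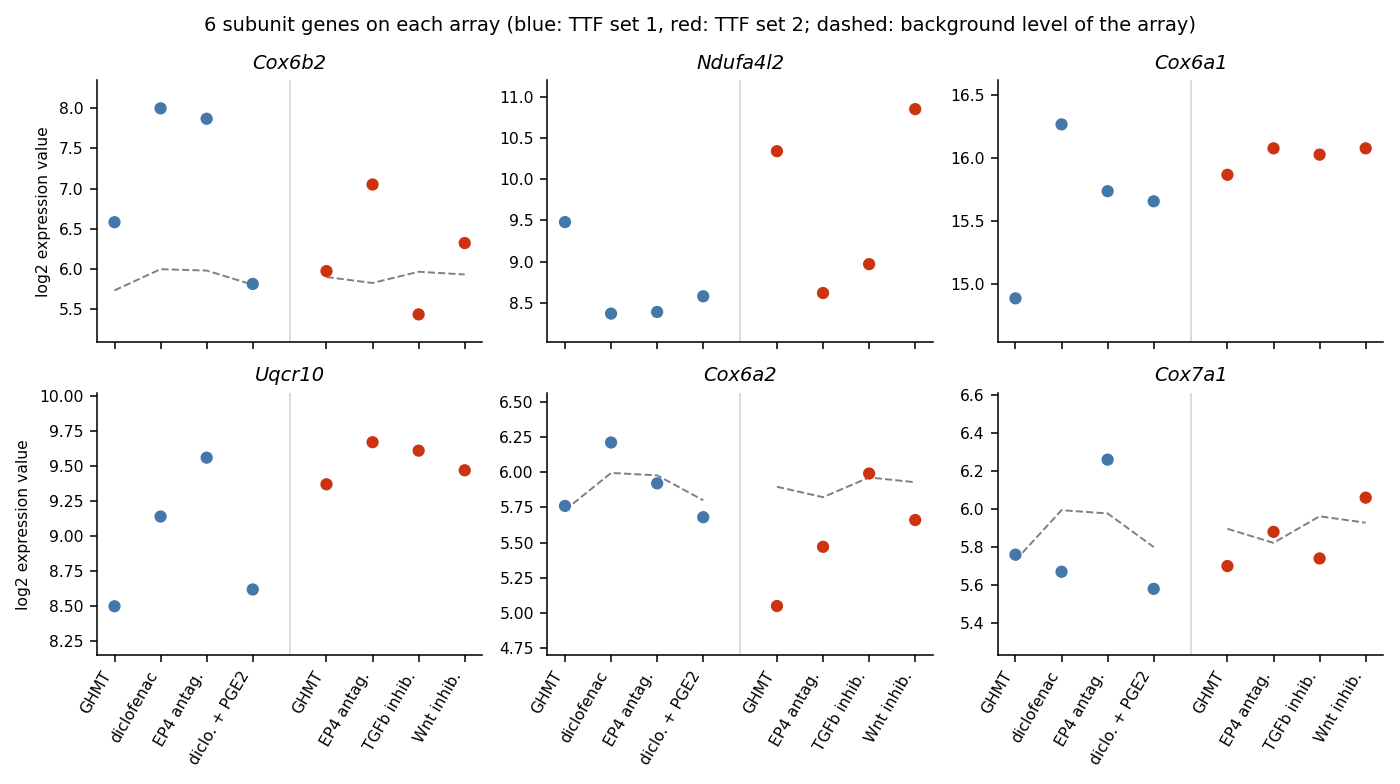
Log2 expression value of 6 subunit genes on each of the 8 arrays, with each panel on its own axis (points blue for TTF set 1 and red for set 2; dashed line, background level of the array where it lies in range). Cox6b2 stands at 7.05 to 8.00 in the 3 arrays with PGE2-EP4 signalling inhibited and at 5.81 to 6.58 in the 3 with it active; Cox6a2 and Cox7a1 stay near background.

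The remaining complex IV isoforms did not pass the test. Cox6a2, the muscle isoform of subunit 6a, read 5.76, 6.21, 5.92 and 5.68 in the GHMT, diclofenac, EP4 antagonist and diclofenac plus PGE2 arrays of set 1, and 5.05, 5.47, 5.99 and 5.66 with GHMT, the EP4 antagonist, the TGFb inhibitor and the Wnt inhibitor in set 2. It was above background with GHMT and diclofenac in set 1 and with the TGFb inhibitor, where the difference from GHMT is at least 1.07-fold. Inhibited minus active it differed by 0.37 (SE 0.15; adjusted p = 0.539, limma with the block). Cox7a1, the muscle isoform of subunit 7a, read 5.76, 5.67, 6.26 and 5.58 in set 1 and 5.70, 5.88, 5.74 and 6.06 in set 2, in the same orders, with a difference of 0.26 (SE 0.18; adjusted p = 0.787). Cox8b, the muscle isoform of subunit 8, was at 3.00 to 3.83 and never above background.

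The ubiquitous counterparts were well above background. Cox6a1 read 14.89 with GHMT, 16.27 with diclofenac, 15.74 with the EP4 antagonist and 15.66 with diclofenac plus PGE2 in set 1. In set 2 it read 15.87, 16.08, 16.03 and 16.08 with GHMT and the EP4 antagonist, TGFb and Wnt inhibitors. The GHMT array of set 1 stood lowest by 0.77, and the other 7 lay within 0.61 of each other. Inhibited minus active it differed by 0.56 (SE 0.24; adjusted p = 0.555, limma with the block). Cox7a2 ran from 9.00 to 10.06 in set 1, lowest with GHMT and highest with diclofenac plus PGE2, and from 10.05 to 11.18 in set 2, lowest with the Wnt and highest with the TGFb inhibitor. Cox7a2l, a relative of subunit 7a that helps complexes III and IV associate, had all 3 inhibited arrays (10.98, 10.86 and 10.99) above the active ones (10.66, 10.80 and 10.57), by 0.27 (SE 0.15; adjusted p = 0.707). Cox4i1, Cox7b and Cox8a differed by 0.11, 0.12 and 0.22 in the same fit, each with an adjusted p above 0.8.

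Ndufa4l2 had the lowest difference from GHMT among the 68 members with diclofenac (-1.11), the TGFb inhibitor (-1.37) and, in sets 1 and 2, the EP4 antagonist (-1.09 and -1.72). It is a relative of Ndufa4 known as a target of hypoxia-inducible factor 1 that dampens complex I activity; Ndufa4 itself is now assigned to complex IV, although both are counted here by symbol. Ndufa4l2 read 9.48 with GHMT, 8.37 with diclofenac, 8.39 with the EP4 antagonist and 8.58 with diclofenac plus PGE2 in set 1. In set 2 it read 10.34 with GHMT, 8.62 with the EP4 antagonist, 8.97 with the TGFb inhibitor and 10.85 with the Wnt inhibitor. GHMT was the highest array of set 1, and the Wnt inhibitor and GHMT were the high arrays of set 2. Unlike for Cox6b2, the value with added PGE2 stayed close to that with diclofenac (0.21 higher).

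With the EP4 antagonist Ndufa4l2 was 2.13-fold lower than GHMT in set 1 and 3.29-fold lower in set 2, a mean difference of -1.41 (SE 0.24 with the block). The adjusted p was 0.541 with the block and 1 without it; only under quantile normalization with the block did it pass, at 0.0498. Inhibited minus active, the difference was -1.01 (SE 0.27; adjusted p = 0.241 with the block). Ndufa4 read 12.31, 12.75, 12.92 and 12.77 in set 1 and 13.91, 13.76, 13.78 and 13.48 in set 2, with a difference of 0.15 (SE 0.18; adjusted p = 0.891).

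Hypoxia and glycolysis genes, 21 measured, hold Ndufa4l2 and Cox4i2 among them. Their median inhibited minus active difference was -0.18, 2 were positive, and 0 passed the test with the block. Pdk1, a kinase that limits pyruvate entry into mitochondria, differed by -0.64 (SE 0.18; adjusted p = 0.251), and Egln3, a prolyl hydroxylase that acts on hypoxia-inducible factor, by 0.78 (SE 0.26; adjusted p = 0.371). Their part in the Ndufa4l2 values was not tested.

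The tested comparisons covered all members. For the EP4 antagonist against GHMT (2 against 2 arrays), 0 of 68 members passed limma's test at an adjusted p under 0.05, without or with the set as block, and 0% of the 22206 clusters did in either fit. At an unadjusted p under 0.05 there were 2 members without the block and 4 with it (144 and 1243 of all clusters). With the block these were 5.88% of members, 5.6% of all clusters and 7.15% of clusters above background in all 8 arrays. Without it the shares were 2.94%, 0.648% and 0.908%. The median difference was 0.14, with 53 positive and 15 negative, where the median of all clusters was -0.01. Without the block that median was 0.34 when the GHMT array of set 2 was left out and -0.10 when the GHMT array of set 1 was, which leaves the sets unequally filled. The labels do not say whether arrays of a group came from separate cultures. A p-value here reflects only how these arrays scatter, which may be technical.

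The EP4 antagonist minus GHMT difference was above 0 in both sets for 35 of 68 members, where 23.9% of all clusters were, and below 0 in both for 6, where 26.2% were. The 6 were Ndufa2, Ndufa4l2, Ndufa7, Ndufa9, Ndufs5 and Uqcrq, of which Ndufa7 was at background. Among the 35 were the largest positive mean differences outside Cox6b2. Uqcr10, a small complex III subunit, read 8.50, 9.14, 9.56 and 8.62 in set 1 and 9.37, 9.67, 9.61 and 9.47 in set 2, and differed by 0.68 (SE 0.25; adjusted p = 0.866 with the block). Ndufa6, an accessory subunit of the LYR motif family in complex I, differed by 0.61 (SE 0.21; adjusted p = 0.866) and was higher in both sets, by 0.78 and 0.43.

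For PGE2-EP4 signalling inhibited (diclofenac and both EP4 antagonist arrays) against active (both GHMT arrays and diclofenac plus PGE2), 0 of 68 members passed without the block (0% of all clusters), and 1, Cox6b2, with it (84 of 22206 clusters, 0.378%). The arms pool treatments that are not replicates of 1 group, so scatter within an arm includes differences between treatments. At an unadjusted p under 0.05 there were 2 members without and 9 with the block (469 and 1925 of all clusters). These were 2.94% and 13.2% of members, against 2.11% and 8.67% of all clusters. Of clusters above background in all 8 arrays, 3.18% and 12% were under it, near the member shares. The median difference was 0.09 against -0.01 for all clusters, with 55 members positive and 13 negative. By complex the medians were 0.08 for complex I, 0.11 for complex II, 0.07 for complex III and 0.12 for complex IV. Without the block the median was 0.01 when the GHMT array of set 1 was left out and -0.02 without the EP4 antagonist array of set 2; with the block it was 0.08 to 0.15 whichever array was left out.

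All 3 inhibited arrays were above all 3 active ones for 3 of 68 members (4.41%: Cox6b2, Cox7a2l and Ndufs7), and below for 0 members. Of all clusters, 2.75% had the first order and 3.09% the second. Of clusters above background in all 8 arrays, 3.31% and 4.19% did. Ndufs7, which carries an iron-sulfur cluster close to the ubiquinone site of complex I, read 8.75 with GHMT, 9.24 with diclofenac, 9.00 with the EP4 antagonist and 8.76 with diclofenac plus PGE2 in set 1. In set 2 it read 8.42 with GHMT, 8.91 with the EP4 antagonist, 8.69 with the TGFb inhibitor and 8.22 with the Wnt inhibitor. Its difference was 0.41 (SE 0.15; adjusted p = 0.454 with the block). Uqcr10 differed by 0.63 (SE 0.18; adjusted p = 0.277), Ndufb3 by 0.49 (SE 0.20; 0.534) and Ndufa6 by 0.44 (SE 0.17; 0.475), and none passed.

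The nuclear core of complex I binds NADH and relays electrons through iron-sulfur clusters. Inhibited minus active, the differences were 0.04 for Ndufv1, the NADH-binding subunit, -0.14 for Ndufv2, 0.14 for Ndufs1, 0.31 for Ndufs3 and 0.08 for Ndufs8, each with an adjusted p above 0.6. In complex III the core proteins Uqcrc1 and Uqcrc2 differed by 0.08 and 0.03, and Uqcrfs1, the Rieske protein, by 0.18 (SE 0.20; adjusted p = 0.871). Ndufb4 (0.02) and Ndufb4b (0.28) are near-identical copies, and their probes may share signal.

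Complex II also acts in the tricarboxylic acid cycle, and 0 of its 4 genes passed the test. Sdha, its flavoprotein, ranged from 9.29 to 9.38 in set 1 and from 9.47 to 9.88 in set 2. Sdhb, the iron-sulfur subunit, ranged from 10.67 to 10.78 and from 10.84 to 11.48, with the Wnt inhibitor lowest in set 2 (-0.64 against GHMT). The membrane anchors Sdhc (8.96 to 9.52 and 10.10 to 10.35) and Sdhd (10.23 to 10.59 and 10.34 to 10.79) complete it. Inhibited minus active, the differences were -0.08 (95% interval -0.42 to 0.25) for Sdha, 0.00 (-0.33 to 0.33) for Sdhb, 0.35 (0.01 to 0.70) for Sdhc and 0.22 (-0.11 to 0.55) for Sdhd, and the adjusted p was 0.561 or higher.

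**Figure D2:**
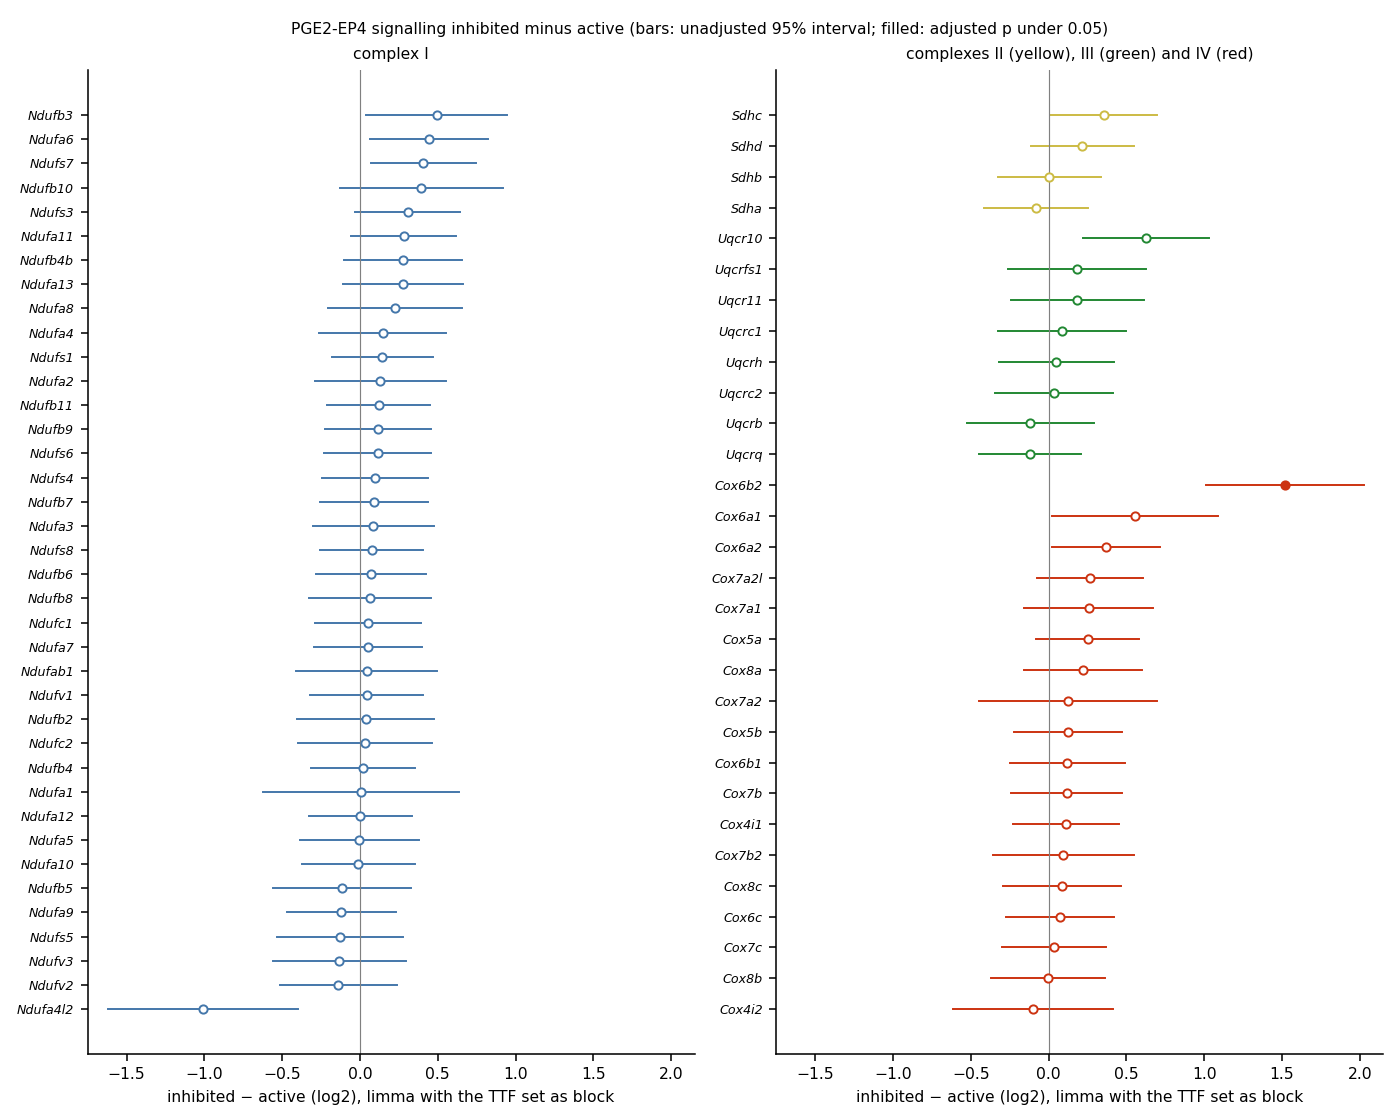
Mean log2 difference of each of the 68 members, PGE2-EP4 signalling inhibited (3 arrays) minus active (3 arrays), from limma with the TTF set as blocking factor (bars, unadjusted 95% intervals; filled point, adjusted p under 0.05). Cox6b2, at 1.52, is the filled point; Ndufa4l2, at -1.01, is the lowest.

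In set 1, each treated array had higher subunit values than GHMT on the whole, including the one with PGE2 added. The 3 differences share the single GHMT array and have no replicate check, so they are given as values. With diclofenac the median over the 68 members was 0.26 (all clusters -0.01), 53 were positive and 15 negative. With the EP4 antagonist it was 0.21 (all clusters -0.01), again with 53 and 15. With diclofenac plus PGE2 it was 0.13 (all clusters 0.00), with 47 and 20. In the same order, the medians of clusters above background in all 8 arrays were 0.02, 0.00 and 0.05. Those of 55 cytosolic ribosomal proteins, listed after values were seen, were 0.03, -0.02 and 0.18. GHMT was the lowest of the 4 arrays for 37 of 68 members, where it was for 24.6% of all clusters, and the highest for 7, where it was for 26.6%. Among clusters above background in all arrays it was lowest for 28.4%. The count of 37 was 34 after quantile normalization and 32 after centring on clusters above background.

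At 1.5-fold or more, diclofenac had 8 members higher than GHMT (5.46% of all clusters) and 2 lower (5.41%). The 8 were Cox6b2 (1.42), Cox6a1 (1.38), Ndufb3 (1.08), Ndufa1 (1.01), Ndufb10 (0.94), Ndufa8 (0.69), Uqcr10 (0.64) and Cox8a (0.61), of which Ndufb10 was at background in both arrays. The 2 lower were Ndufa4l2 (-1.11) and Cox4i2, at background in both. Ndufb3, an accessory subunit of the complex I membrane arm, read 6.04 with GHMT, 7.12 with diclofenac, 6.71 with the EP4 antagonist and 6.32 with diclofenac plus PGE2. In set 2 its values lay between 6.59, with the Wnt inhibitor, and 6.97. By complex the diclofenac medians were 0.19 for I, 0.18 for II, 0.40 for III and 0.27 for IV.

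The EP4 antagonist in set 1 had 10 members higher at that fold (5.01% of all clusters) and 2 lower (5.36%). Beside Cox6b2 (1.29), Uqcr10 (1.06), Cox6a1 (0.85), Ndufa6 (0.78), Ndufb3 (0.67), Ndufa13 (0.63), Ndufa4 (0.61) and Ndufa1 (0.60), the 10 included Uqcrfs1 (0.64) and Ndufb10 at background. Ndufa4l2 (-1.09) and Cox4i2, at background, were the 2 lower. Diclofenac plus PGE2 had 8 higher than GHMT (5.04%) and 3 lower (5.42%), led by Cox7a2 (1.06), Ndufa1 (0.90), Cox6a1 (0.77) and Ndufab1 (0.73), the mitochondrial acyl carrier protein, and by Ndufa4l2 (-0.90) and Cox6b2 (-0.77). Ndufb10 and Cox4i2, at background, are in those counts.

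Against diclofenac alone, the array with PGE2 added does not use GHMT. Its median difference was -0.07 (all clusters 0.01), with 28 members positive and 39 negative. At 1.5-fold 0 members were higher (4.95% of all clusters) and 3 were lower (5.48%): Cox6b2 (-2.19), Ndufb3 (-0.80) and Cox6a1 (-0.61). Ndufa2 followed at -0.55. The highest were Uqcrb (0.56), Ndufb2 (0.49), Cox7a2 (0.48) and Ndufc2 (0.43). Cox6b2 was the 1 member at least 1.5-fold above GHMT with diclofenac and at least 1.5-fold below it with diclofenac plus PGE2.

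**Figure D3:**
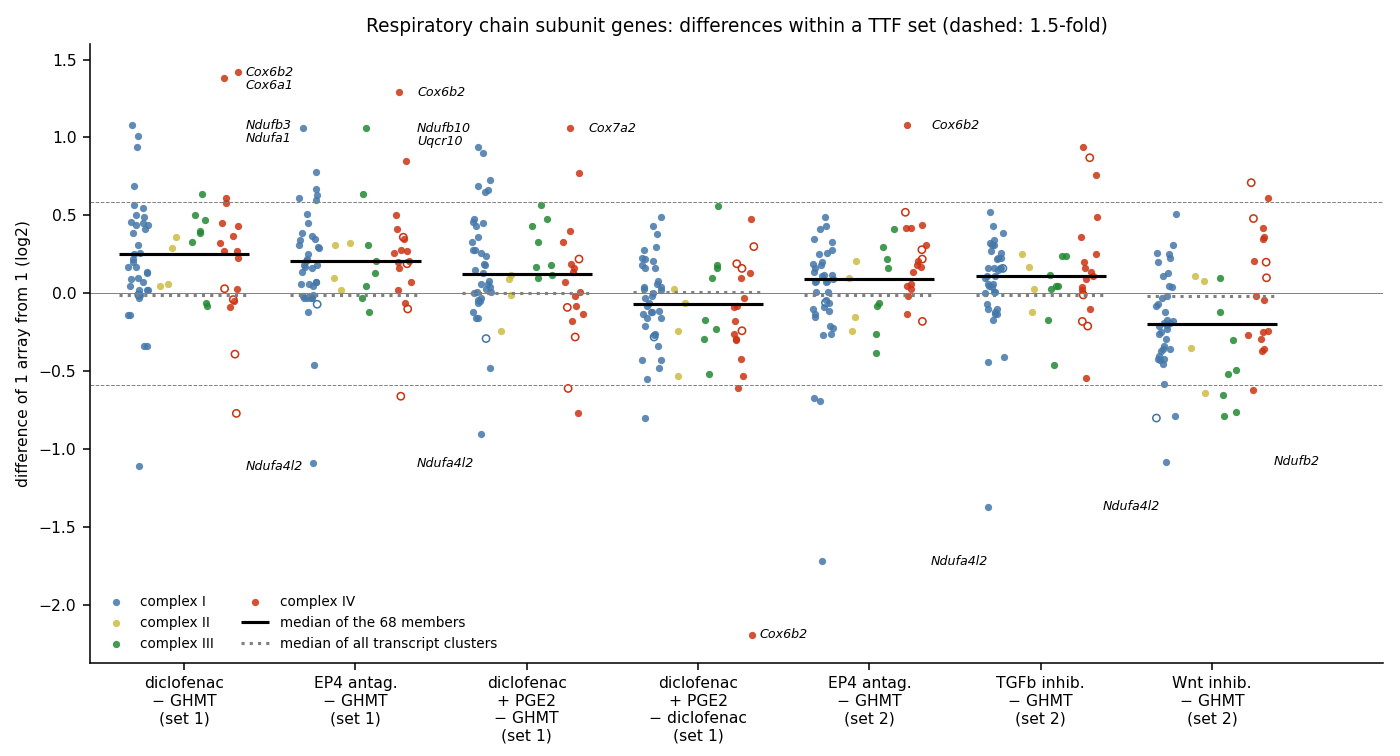
Difference of 1 array from 1 (log2) for each of the 68 members in 7 contrasts within a TTF set, coloured by complex (open circles, members at background in all 8 arrays; black line, median of members; dotted line, median of all transcript clusters). Member medians run from -0.20 with the Wnt inhibitor to 0.26 with diclofenac, and members 2-fold or more apart are named.

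In set 2 the EP4 antagonist gave a median of 0.10 (all clusters -0.01), with 44 members positive and 24 negative. The 55 cytosolic ribosomal proteins had a median of 0.21 with the antagonist, with 46 positive, and of -0.22 with the TGFb inhibitor. Cox6b2 (1.08) was the 1 member at least 1.5-fold higher (6.18% of all clusters), and Ndufa4l2 (-1.72), Ndufa1 (-0.69) and Ndufv3 the 3 lower (6.63%). Ndufv3, an accessory subunit beside the NADH-oxidizing end of complex I, was at background with the antagonist, so its difference is at least 1.51-fold. By complex the medians were 0.08, -0.03, 0.05 and 0.20 for I to IV. With the TGFb inhibitor the median was 0.11 (all clusters -0.01), with 49 positive and 18 negative. By measured values, 3 members were 1.5-fold higher (8.26%). They were Cox7a2 (0.76), Cox6a2, whose GHMT array was at background so that its difference is at least 1.07-fold, and Cox4i2, at background in both arrays. Lower was 1, Ndufa4l2 (-1.37), where 8.26% of clusters were lower.

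Among the contrasts with GHMT, the Wnt inhibitor was the 1 with a negative member median. It was -0.20 (all clusters -0.02), with 22 members positive and 46 negative, and that array was the lowest of the 4 of set 2 for 43 of 68 members, where it was for 26.3% of all clusters. It was the highest for 7, where it was for 24% of all clusters. The 43 were 42 after quantile normalization and 43 after centring. Complex III had the lowest median, -0.51, with 7 of 8 genes negative. Complex I was at -0.20 and complex II at -0.14. Complex IV was at 0.04, with 9 genes positive and 9 negative. Its positive genes included Cox4i2 (0.71), Cox6a2 (0.61), Cox7b2 (0.48), Cox8b (0.20) and Cox8c (0.10), at background in both arrays. Without the 8 tissue isoforms, the other 60 members had a median of -0.245, with 14 positive and 46 negative.

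At 1.5-fold, 8 members were lower with the Wnt inhibitor (8.15% of all clusters) and 2 higher (8.54%). Ndufb2, an accessory complex I subunit, was lowest at -1.08: it read 7.75 with GHMT, 8.01 with the EP4 antagonist and 7.65 with the TGFb inhibitor, and 6.67 with the Wnt inhibitor. Uqcrfs1 read 10.70, 10.32, 10.75 and 9.91 in the same order. Ndufa11 (-0.79), Uqcr11 (-0.76), Uqcrc2 (-0.65), Sdhb (-0.64), Cox6b1 (-0.62) and Ndufa7, at background, made up the 8. The 2 higher, Cox4i2 and Cox6a2, were at background in both arrays. Above background, the highest were Ndufa4l2 (0.51), Cox7a2l (0.42), Cox7a1 (at least 1.12-fold) and Cox6b2 (0.35).

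The other gene lists had these medians in the Wnt inhibitor array against GHMT, without a test. They were -0.18 for 18 ATP synthase subunits, -0.17 for 42 respiratory chain assembly factors, -0.09 for 28 genes of electron carriers and the tricarboxylic acid cycle, -0.29 for 76 mitochondrial ribosomal proteins and -0.81 for 20 cell cycle genes. The 26 cardiac muscle genes had a median of 0.65. At least 1.5-fold higher were 15 (8.54% of all clusters), and 0 were lower (8.15%). Of the 15, Myh7, Myl2, Mb and Cox6a2 were at background in both arrays. The 8813 clusters above background in all 8 arrays had a median of -0.05. For 55 cytosolic ribosomal proteins, a list added after values were seen, the median was -0.31 and 53 were negative. Cycs, cytochrome c, read 14.20, 14.02, 13.76 and 13.51 in set 2, lowest with the Wnt inhibitor. The 28 regulators of mitochondrial biogenesis had a median of -0.05 in the Wnt inhibitor array. At 1.5-fold, 3 were higher (8.54% of all clusters) and 6 lower (8.15%). Among them Tfam, which packages mitochondrial DNA and activates its transcription, read 7.49, 6.81, 7.36 and 5.97 in set 2. In set 1 it read 6.63, 6.44, 5.74 (at background) and 6.87. Pparg (1.88) and Ppargc1a (1.79) were higher with the Wnt inhibitor than with GHMT, where both were at background. What part these had in the subunit values was not tested.

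**Figure D4:**
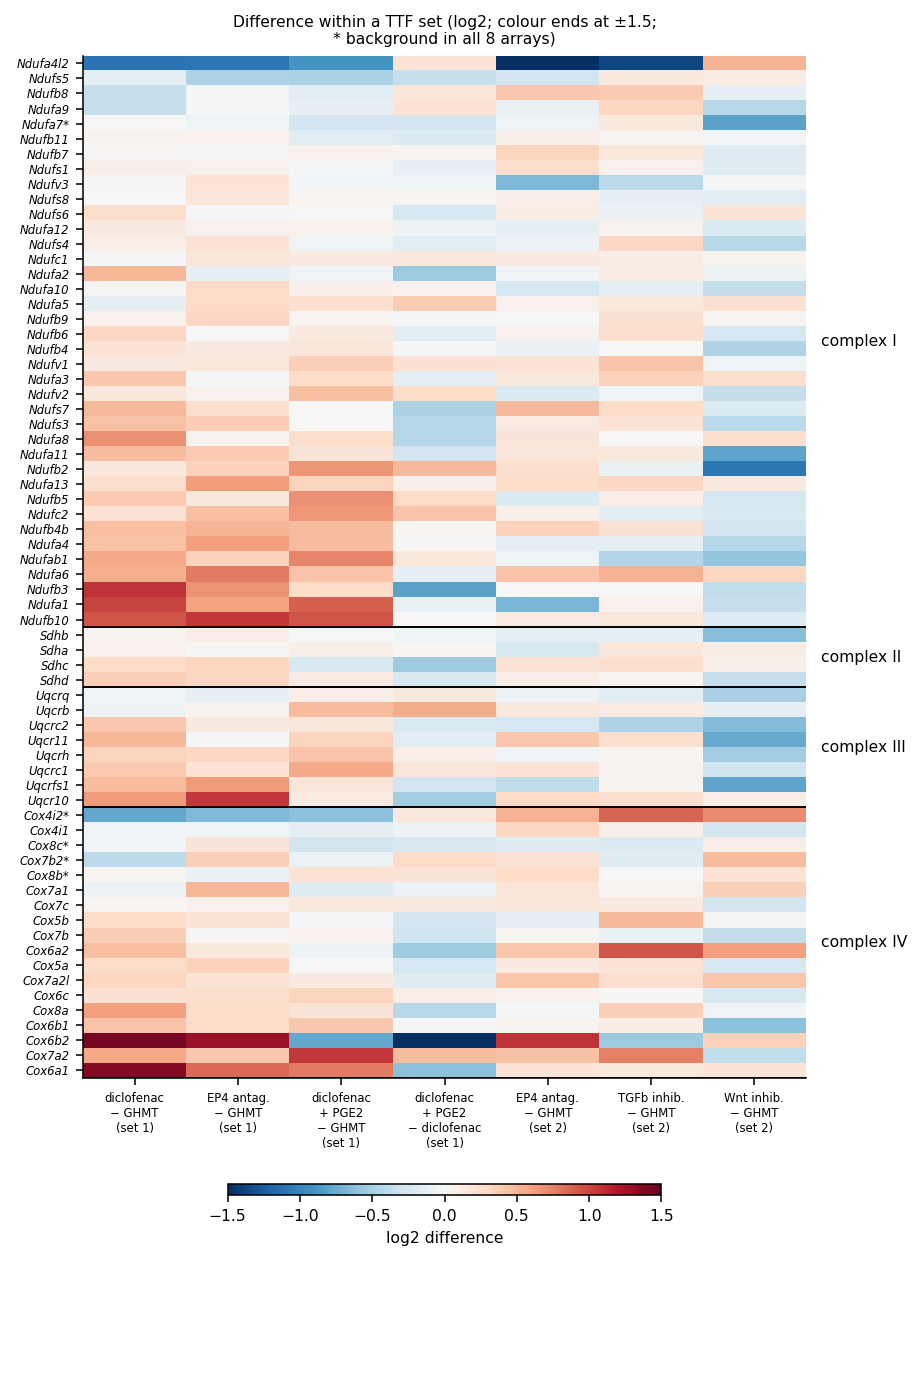
Log2 difference within a TTF set for each of the 68 members (rows, grouped by complex) in the 7 contrasts (columns); red is higher, blue lower, and an asterisk marks members at background in all 8 arrays. Most rows are red in the first 3 columns, which share the GHMT array of set 1, and 46 of 68 are below 0 in the Wnt inhibitor column.

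No test compared the other gene lists with the subunits. In the inhibited against active comparison with the block, limma called 8 of 26 cardiac muscle genes higher and 0 lower. Over all 22206 clusters it called 57 higher and 27 lower. The list median was 0.66. The 8 were Myh6 (2.99, SE 0.38; adjusted p = 0.0186), Actc1 (2.36), Smyd1 (2.18), Myl7 (2.17), Myl4 (1.34), Mybpc3 (1.26), Tnnc1 (1.20) and Mb (1.12). None passed without the block. They encode contractile proteins, apart from Smyd1, a methyltransferase needed for sarcomere assembly, and Mb, myoglobin. Mb was at background in all active arrays, and Myh6 and Smyd1 were at background with GHMT in set 2. The cardiac list holds the muscle isoforms Cox6a2, Cox7a1 and Cox8b, none of which passed. Without the 8 tissue isoforms, the other 60 subunits had a median of 0.09.

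The lists around the respiratory chain had 0 genes past the threshold in that fit in either direction. The 18 ATP synthase subunits had a median of 0.14 with 15 positive, led by Atp5d (0.52, SE 0.16; adjusted p = 0.308). The 42 assembly factors had 0.04, the 28 carrier and tricarboxylic acid cycle genes -0.02, the 76 mitochondrial ribosomal proteins 0.03 and the 28 regulators of mitochondrial biogenesis -0.05. Ppargc1a, a coactivator that drives mitochondrial biogenesis, read 6.36, 7.24, 6.75 and 5.64 in set 1 and 4.21, 5.68, 5.52 and 6.00 in set 2. It differed by 1.15 (SE 0.23; adjusted p = 0.0869), and 4 of its 8 values were above background. Fibroblast markers had a median of -0.46, with 1 of 10 positive, and the 20 cell cycle genes -0.33, with 0 positive; 0 genes of either list passed. Their part in the subunit values was not tested.

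**Figure D5:**
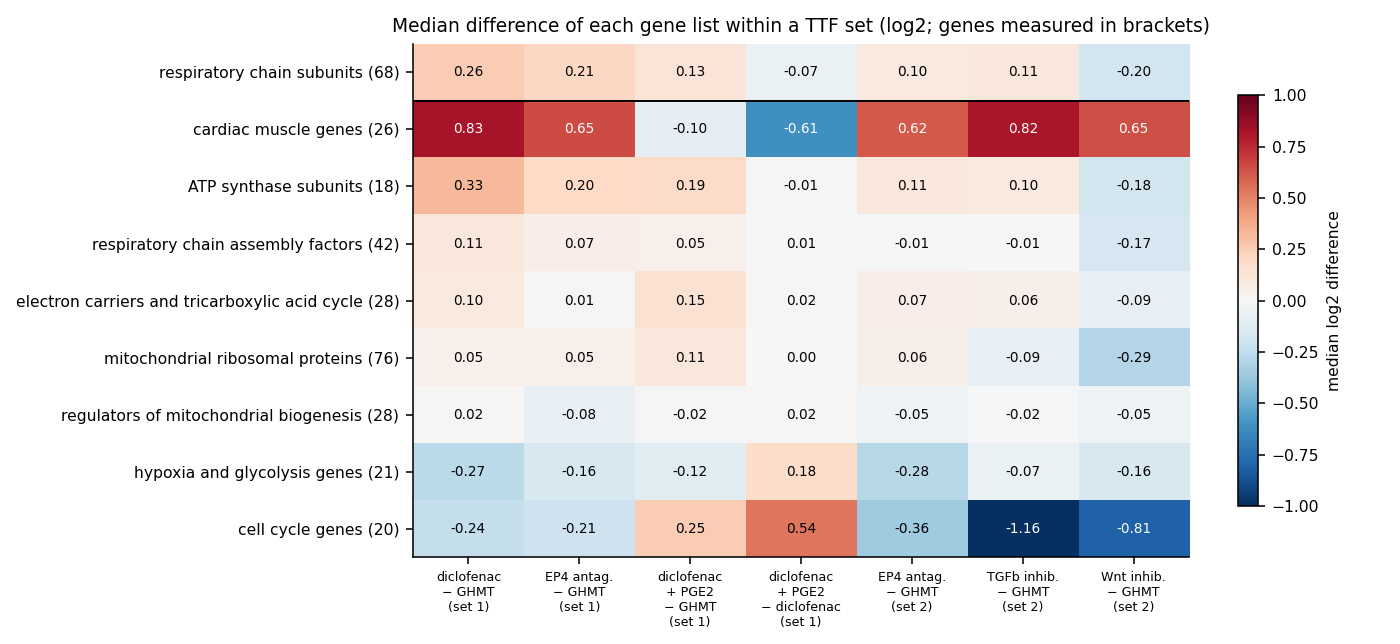
Median log2 difference within a TTF set of the respiratory chain subunits (top row) and of 8 other gene lists, in 7 contrasts, each cell printed with its value. With diclofenac the subunits stand at 0.26 and ATP synthase at 0.33, against 0.83 for cardiac muscle genes.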

How the data were processed

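Total RNA of 8 cultures was hybridised to 1 Clariom S Mouse array each. Per the submitters' design text, the authors normalized the deposited log2 values by SST-RMA, a multichip method of Affymetrix Expression Console 1.4; no genome build is named in those sources. The table held 22206 transcript clusters and 6640 control probe sets, and 19572 clusters had a symbol. The members and lists were chosen with earlier results of these data known. Named members were mostly drawn from the tissue isoforms, complex II, the 4 highest and 4 lowest per contrast, the 10 most variable and any that passed a test. Not all of the 4 highest and 4 lowest of each contrast are given in the text. Levels were not ranked between genes.

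The comparisons were fitted over all clusters by lmFit and eBayes of limma 3.58.1 (R 4.3.3), two-sided. The threshold was an adjusted p of 0.05 (Benjamini-Hochberg), without and, as an alternative, with the TTF set as a block. The set number in the titles pairs the arrays: same-numbered GHMT and EP4 antagonist arrays deviated together from the group means (r = 0.724 across clusters). All standard errors of differences are from the fit with the block. Other contrasts were 1 array against 1 within a set, counted at 1.5-fold. The background rule was chosen after seeing the data. "At least" marks a fold against background. The fits were also run on simulated data in which every array of an arm had the same change. The inhibited and active arms pool treatments, so that run could not check the call of Cox6b2.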

Additional observations from a re-analysis of the deposited data

Results flagged for a closer look

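Ndufa1, an accessory complex I subunit, differed from GHMT in opposite directions in the TTF sets with the EP4 antagonist: it was 0.60 higher (log2) in set 1, where GHMT read 7.96 and the antagonist 8.56, and -0.69 in set 2, where GHMT read 9.72 and the antagonist 9.03. It was the 1 member that reached 1.5-fold in both sets with opposite signs, of 27 members with opposite signs. The difference between the sets was not tested, since each rests on 1 array per arm. In set 1 GHMT was also below diclofenac (8.97) and diclofenac plus PGE2 (8.86).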

How the results depend on the processing

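With the block, limma called 1 member, Cox6b2, in the inhibited against active comparison (0 without it). It also called 1 with quantile normalization and the block, 1 with a trended robust prior and the block, 1 with the block on clusters above background in 2 arrays, and 1 with the block without the GHMT array of set 1. The other 5 arrays, each left out with the block, gave 0. The last 3 kinds of fit were added after seeing the data. For the EP4 antagonist against GHMT, quantile normalization with the block called 1 member, Ndufa4l2 (0 otherwise). Leaving out arrays without the block moved the median difference between -0.10 and 0.34 for the EP4 antagonist and between -0.018 and 0.23 for inhibited against active, and called 0 members throughout; the cause of these changes was not tested. The block changed no other member's call.

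Counting at 2-fold in place of 1.5-fold left 5 members for diclofenac, 4 and 2 for the EP4 antagonist in sets 1 and 2, and 1 each for diclofenac plus PGE2 against GHMT, the same against diclofenac, TGFb inhibition and Wnt inhibition. Quantile normalization, centring and the background filter left the 1.5-fold counts within 1.5 times and no member median moved by 0.08 or more. The 2-fold counts were taken on the deposited values only, so they were not checked under these settings. Each member has 1 cluster, so averaging clusters could not be run as an alternative. Genes near background, such as Cox6a2 and Cox7a1, and contrasts of 1 array against 1 limit what can be measured.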
